A study of Mus musculus with 6 samples.

Results

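The genes described here carry the TGF-beta, BMP and Wnt signals: the secreted ligands, the proteins that store or block them, their receptors and the proteins that pass the signal to the nucleus. They were chosen by gene symbol, from the families Wnt, Fzd, Sfrp, Bmp, Smad, Inhb, Acvr, Tgfb and Ltbp and from Ctnnb1, Axin1, Axin2, Nog, Grem1, Fst and Lrp6, with Acvrl1 left out. The array held 81 probes for 79 such genes, and 48 probes, 1 for each of 48 genes, had a value on at least 4 of the 6 arrays, of 11629 probes tested in all. The rule goes by name, so that Tgfb1i1, an adaptor of focal adhesions named for its induction by TGF-beta, is among them.

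Each array compared amplified lung RNA of 1 C57 mouse that had been sensitized to and challenged with ovalbumin (OVA) (a model of allergic asthma) with amplified lung RNA pooled from control C57 mice, in the other channel of a spotted 2-colour array. The 6 OVA mice are 1 group, and the same pool served as the control on every array. The sources used here give neither age, sex, dose and timing nor what the control mice received. Values are log ratios of each OVA mouse and the pool, read as log2, with the sign the authors deposited. Which channel stands on top of the ratio is not given: titles name the OVA mouse first, but Clca1, Muc5ac and Retnla, genes known to rise in this model, had negative means and were negative in 5 of 6 mice each. Neither sign is therefore assigned to the OVA mice, and sizes are given as folds apart from the pool. A ratio holds no level, so the tissue label could not be checked. On the array 13 of 14 club cell genes and 12 of 12 alveolar genes had enough values to be tested. So had 14 of 16 heart muscle genes and 10 of 11 adipocyte genes, and 68.0% of all probes, so these counts do not tell tissues apart.

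The arrays had values for between 10922 and 13132 probes, and for 48 to 59 of the 81 probes described here. The array of mouse 3 stood apart, with an SD of the log ratio over all probes of 0.21 against 0.32 to 0.47 on the others. Without it all 9 genes called below kept their call. In bulk lung RNA, fewer cells of a type and less RNA per cell cannot be told apart.

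As background, TGF-beta is secreted in a latent complex, held in the matrix by latent TGF-beta binding proteins (LTBPs), and is released from it before it can act. TGF-beta and activin receptors phosphorylate Smad2 and Smad3, while BMP receptors phosphorylate Smad1, Smad5 and Smad9, and Smad4 joins both branches. Wnt ligands bind Frizzled receptors with the co-receptors Lrp5 or Lrp6 and keep beta-catenin (Ctnnb1) from being degraded by the complex around Axin. In the lung these pathways pattern branching and the mesenchyme, and TGF-beta is known for its part in the deposition of airway matrix.

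Most of the 48 genes lay close to the pool. The largest ratios belonged to LTBP genes, and on opposite sides. Ltbp1 RNA had a mean log2 ratio of -1.14 and Ltbp4 RNA of 0.98, each about 2-fold from the pool. The TGF-beta receptor Tgfbr2, the activin receptor Acvr2a and Smad2 were negative in every mouse, as was the Wnt co-receptor Lrp6. Among the Wnt ligands Wnt16 and Wnt5b were positive and Wnt2b negative. No BMP ligand, BMP receptor or BMP inhibitor among the 48 passed the test, where 24.4% of all probes tested did. Outside the 48, the receptor Acvrl1 and the secreted BMP modulator Bmper did pass.

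In all, 9 of the 48 genes passed an adjusted p of 0.05 (limma against 0, Benjamini-Hochberg over all 11629 probes), 6 of them negative and 3 positive. Over all probes tested 24.4% passed, 12.3% negative and 12.0% positive, so the share of called genes here was not above that of the array as a whole. The median of the 48 means was 0.01, against -0.003 over all probes, with 23 means negative and 25 positive. Ltbp1 and Ltbp4 were at least 1.5-fold apart from the pool, where 5.34% of all probes were, and 40 of the 48 were less than 1.2-fold apart. Of the 41 genes with a value on every array, 10 had the same sign in all 6 mice, where 30.2% of such probes on the array did. For all 39 genes without a call the 95% interval of the mean lay within 2-fold of the pool on either side, and for 37 within 1.5-fold. Scaling and weighting of arrays changed the balance of the signs: with arrays scaled to the same spread 6 negative and 6 positive genes passed, and with array weights 6 and 7. The counts also rested on single mice: 2 negative genes and 1 positive gene passed without mouse 4, and 2 negative and 4 positive without mouse 6. There were 3 negative without mouse 2 or mouse 5, and 6 of each sign without mouse 3. Calls over all probes changed as well, from 2832 to 1325 without mouse 4 and 1708 without mouse 6. They numbered 1376 without mouse 2, 2050 without mouse 5 and 3036 without mouse 3.

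**Figure D1:**
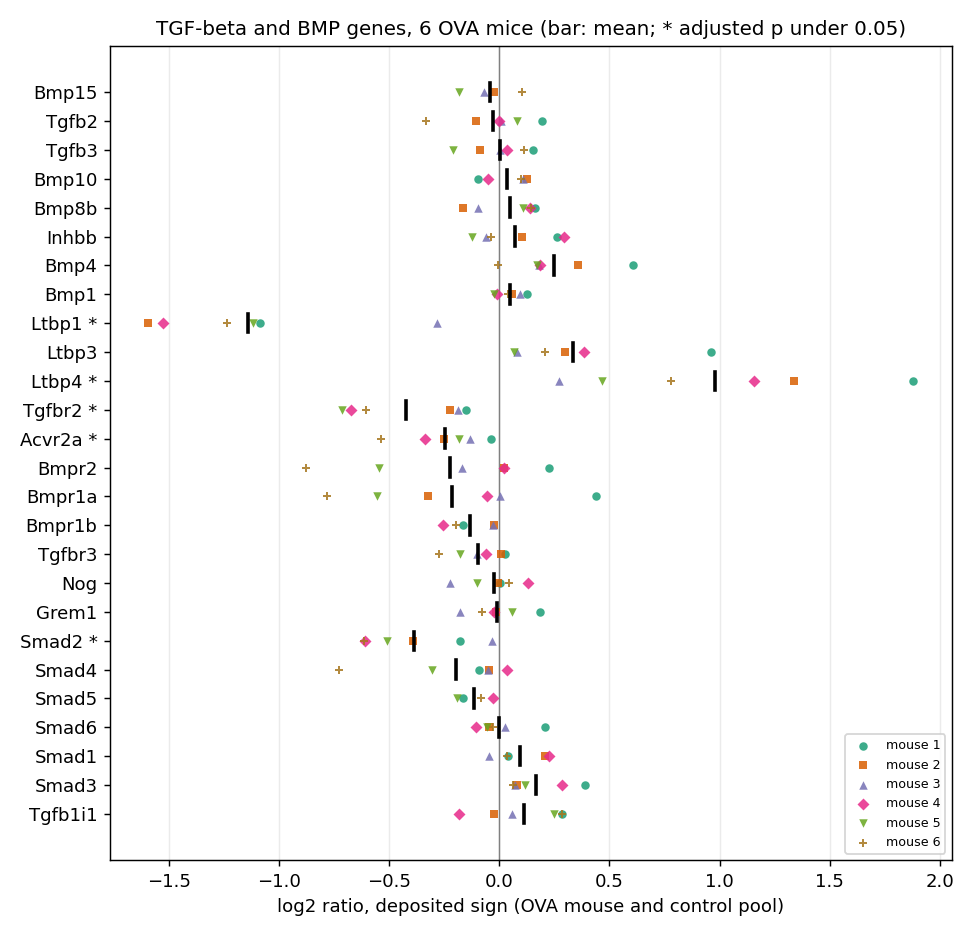
The horizontal axis gives the log2 ratio with its deposited sign for 26 TGF-beta and BMP genes, with 1 symbol for each OVA mouse and a black bar for the mean; an asterisk marks an adjusted p under 0.05. Ltbp1, between -1.59 and -0.28, and Ltbp4, between 0.27 and 1.88, lie farthest from 0, and most other means lie within 0.25 of it.

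The starts of Ltbp1 and Ltbp4 are shown because these genes had the largest ratios of the 48 and stood on opposite sides. The sequences are the 250 bases before each transcript start in the RefSeq promoter table (build GRCm38.p6), written 5′ to 3′ on the strand of the gene, and a start within 250 bases of one already shown was left out. Capitals mark the letters CAGAC or, on the other strand, GTCTG, the core of a sequence that SMAD proteins bind.
Ltbp1 start 1, chr17:75005279-75005528, plus strand: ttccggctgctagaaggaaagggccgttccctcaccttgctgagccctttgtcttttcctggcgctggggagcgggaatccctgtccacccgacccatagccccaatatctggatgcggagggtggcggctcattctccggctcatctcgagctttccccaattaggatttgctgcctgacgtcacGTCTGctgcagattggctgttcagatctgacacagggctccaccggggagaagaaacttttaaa
Ltbp1 start 2, chr17:75178531-75178780, plus strand: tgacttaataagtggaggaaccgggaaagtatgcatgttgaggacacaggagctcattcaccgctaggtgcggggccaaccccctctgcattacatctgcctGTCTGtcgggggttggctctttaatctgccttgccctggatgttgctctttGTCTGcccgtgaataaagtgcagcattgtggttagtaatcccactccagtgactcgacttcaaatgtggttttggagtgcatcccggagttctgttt
Ltbp4 start 1, chr7:27337613-27337862, minus strand: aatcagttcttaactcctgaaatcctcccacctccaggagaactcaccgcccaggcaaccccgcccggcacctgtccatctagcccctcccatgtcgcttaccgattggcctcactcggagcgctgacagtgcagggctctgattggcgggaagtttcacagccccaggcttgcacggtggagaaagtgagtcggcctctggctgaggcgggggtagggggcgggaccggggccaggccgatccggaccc
Ltbp4 start 2, chr7:27333664-27333913, minus strand: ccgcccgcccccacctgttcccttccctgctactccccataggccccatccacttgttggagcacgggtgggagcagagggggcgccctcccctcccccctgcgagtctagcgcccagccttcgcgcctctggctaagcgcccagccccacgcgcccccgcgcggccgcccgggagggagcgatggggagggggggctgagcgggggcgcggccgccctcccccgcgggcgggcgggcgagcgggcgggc
The first Ltbp1 window held 1 copy and the second 2 copies, all on the reverse strand, and neither Ltbp4 window held the letters. GC content was 56.8% and 50.8% for Ltbp1 and 64.4% and 79.2% for Ltbp4, against a median of 52.4% over the table. The letters were present in 42.2% of the 32851 windows of the table and in 19 of 46 windows of the 35 tested genes found in it, so their presence is common, and a match is a description of the letters alone. Which of these starts was in use cannot be read from the arrays.

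TGF-beta ligands stayed near the pool. Tgfb2 and Tgfb3, which signal through Tgfbr2, had means of -0.03 (95% interval -0.18 to 0.13) and 0.001 (-0.12 to 0.13), with single mice on both sides of 0. Inhbb, a subunit of activin B and inhibin B, was at 0.07 (-0.08 to 0.23). Tgfb1, the ligand most studied in airway remodelling, and the activin subunit Inhba had no value on any array.

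The genes of the LTBPs, which tie latent TGF-beta to the matrix, divided. Ltbp1, the family member first found bound to latent TGF-beta, was at -1.09, -1.59, -0.28, -1.53, -1.12 and -1.24 in mice 1 to 6. Every mouse was negative, and mouse 3 stood nearest to 0. Its mean was -1.14 ± 0.47 (SD, n = 6), 2.2-fold from the pool (adjusted p = 0.00552 in limma), and 1.17% of all tested probes had a larger mean on either side. Ltbp4, which also takes part in the assembly of elastic fibres, was at 1.88, 1.34, 0.27, 1.15, 0.47 and 0.78. All mice were positive, with mouse 1 highest and mouse 3 lowest. Its mean was 0.98 ± 0.60, 1.97-fold apart (adjusted p = 0.0151), and the call was lost without mouse 2 (mean 0.91, adjusted p = 0.0527) or mouse 4 (mean 0.95, adjusted p = 0.0523). Ltbp3, whose loss is known to alter bone and teeth, was positive in 6 of 6 mice, from 0.07 in mouse 5 to 0.96 in mouse 1, but its mean of 0.33 ± 0.33 did not pass (adjusted p = 0.0729). It passed with arrays scaled (0.30, adjusted p = 0.0444), quantile-normalized (0.29, adjusted p = 0.0436) or weighted (0.30, adjusted p = 0.0446). Within each array, Ltbp4 exceeded Ltbp1 by 2.97, 2.93, 0.55, 2.68, 1.59 and 2.01 in mice 1 to 6, a mean difference of 2.12 ± 0.94 on the log2 scale, given as a description because the pair was picked for its ratios. Without mouse 3 the means of Ltbp1 and Ltbp4 were -1.31 (adjusted p = 0.000682) and 1.12 (adjusted p = 0.00812). For the marker lists that follow, 24.4% of all probes passed the threshold. Heart muscle genes were positive too, 9 of 14 past the threshold, with a list mean between 0.16 in mouse 3 and 1.42 in mouse 1. Club cell genes had 9 of 13 calls, all positive, with a list mean between 0.23 in mouse 3 and 1.42 in mouse 1, and adipocyte genes 5 of 10, all positive, between 0.42 in mouse 3 and 1.56 in mouse 1. Endothelial genes had 7 of 13, all positive, between 0.15 in mouse 5 and 0.85 in mouse 1. On the side of Ltbp1, macrophage genes had 3 of 7 calls, all negative, between -1.24 in mouse 2 and 0.05 in mouse 3, and cell cycle genes 9 of 13, all negative, between -1.36 in mouse 1 and -0.01 in mouse 3. Fibroblast genes had 2 negative calls and 1 positive call of 12, a share near that of all probes. Alveolar genes had 3 negative calls and 1 positive call of 12, and smooth muscle genes 1 call of each sign of 8. The part of such cells in the LTBP ratios was not tested.

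**Figure D2:**
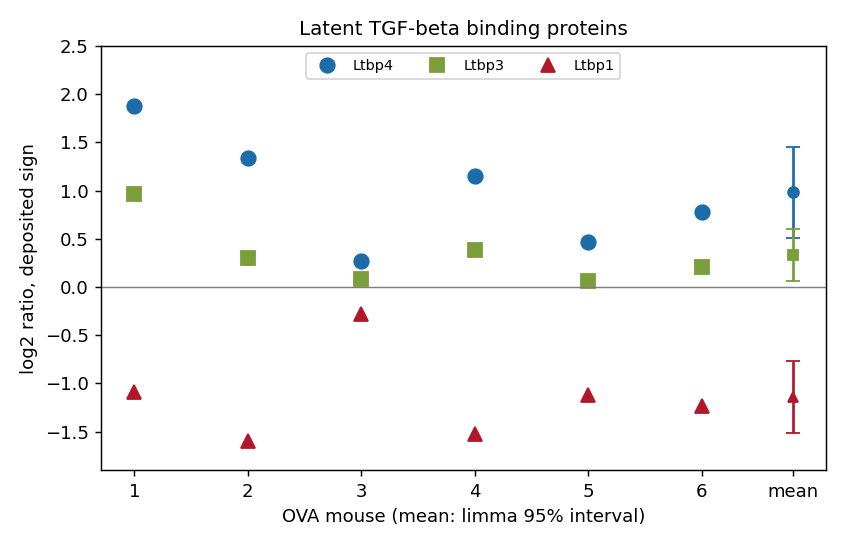
The log2 ratio (deposited sign, vertical axis) of Ltbp4, Ltbp3 and Ltbp1 is plotted for each of the 6 OVA mice, and at the right as the mean with its 95% interval from limma. Ltbp4 and Ltbp1 do not overlap in any mouse and are closest in mouse 3, at 0.27 and -0.28.

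Receptors of the TGF-beta and BMP families chosen by the name rule had negative means in 6 of 6 tested genes. Their median was -0.22, against -0.003 over all probes, and 2 passed the test, where 24.4% of all probes did. The receptor Acvrl1, which the rule left out, was positive in every mouse, from 0.46 in mouse 5 to 1.06 in mouse 1. Its mean was 0.71 (adjusted p = 0.00344 in limma). Tgfbr1, also chosen by name, had values on 3 arrays only and was not tested. Before centring it was positive on each, at 0.07 in mouse 3, 0.23 in mouse 4 and 0.06 in mouse 6. The shared negative sign therefore holds for the tested receptors chosen by name and not for every measured receptor of these families. Tgfbr2, the receptor that binds TGF-beta and starts the signal, was at -0.15, -0.22, -0.19, -0.67, -0.71 and -0.60 in mice 1 to 6. All mice were negative, and mice 4, 5 and 6 lay apart from mice 1, 2 and 3. The mean was -0.43 ± 0.26, 1.34-fold apart (adjusted p = 0.0183), but without mouse 4 (-0.38, adjusted p = 0.0599) or mouse 6 (-0.39, adjusted p = 0.0558) it did not pass, and without mouse 3 it was at -0.47 (adjusted p = 0.0164). A second Tgfbr2 probe had values on 3 arrays, -0.04 in mouse 2, -0.24 in mouse 5 and -0.06 in mouse 6, which were of the same sign and smaller. Acvr2a, which binds activins, was at -0.04, -0.25, -0.13, -0.34, -0.18 and -0.54. It too was negative throughout, with mouse 6 lowest. The mean was -0.25 ± 0.18 (adjusted p = 0.0339), and leaving out mouse 2, 4, 5 or 6 ended the call (adjusted p between 0.0623 and 0.0996), while without mouse 3 it was at -0.27 (adjusted p = 0.0394). Tgfbr3, or betaglycan, which presents TGF-beta to Tgfbr2, had a mean of -0.10 (95% interval -0.21 to 0.02).

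Of the BMP receptors, Bmpr2 and Bmpr1a differed mainly between mice. Bmpr2, the type II receptor whose loss is known from pulmonary hypertension, was at 0.23, 0.02, -0.17, 0.02, -0.55 and -0.88 in mice 1 to 6. Bmpr1a, a type I receptor, was at 0.44, -0.33, 0.00, -0.06, -0.56 and -0.78. Both were positive in mouse 1 and lowest in mice 5 and 6. Their means of -0.22 ± 0.41 (adjusted p = 0.286) and -0.21 ± 0.43 (adjusted p = 0.326) did not pass, and 6.65% and 5.92% of all tested probes had a larger SD. The fibroblast list mean was also highest in mouse 1, at 0.21, and lowest in mice 5 and 6, at -0.50 and -0.36. The endothelial and alveolar list means were highest in mouse 1 as well, at 0.85 and 0.36, and stood at 0.15 and -0.06 in mouse 5 and at 0.34 and -0.19 in mouse 6. The part of these cells was not tested. Bmpr1b was negative in all 5 mice with a value, at -0.13 ± 0.10 (n = 5, adjusted p = 0.104).

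**Figure D3:**
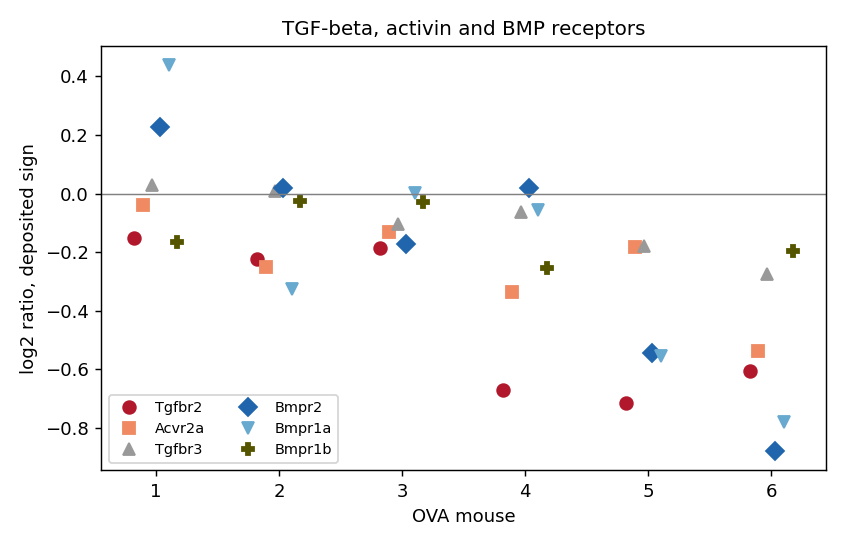
The log2 ratio (deposited sign, vertical axis) of 6 TGF-beta, activin and BMP receptors is plotted for each OVA mouse. Tgfbr2 and Acvr2a lie below 0 in every mouse, while Bmpr2 and Bmpr1a run from above 0 in mouse 1 to -0.88 and -0.78 in mouse 6.

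BMP ligands had no call among 4, with means from -0.04 to 0.25. Over all probes 24.4% were called, so with so few genes this count is no result about these ligands. Bmp4, a mesenchymal ligand of lung branching, was at 0.60, 0.35, 0.18, 0.18, 0.17 and -0.01 in mice 1 to 6. Mouse 1 was highest and mouse 6 at the level of the pool. The mean of 0.25 ± 0.21 lay just outside the threshold (adjusted p = 0.0518). It passed without mouse 6 (0.30, adjusted p = 0.0475) and in 5 other settings, with adjusted p between 0.028 and 0.0497. Bmp8b was at 0.05 and Bmp10, a heart-derived ligand, at 0.04 in 5 mice, while Bmp15, known from the oocyte, was at -0.04 in 4 mice. Bmp1, which is a protease of procollagen and no BMP ligand, was at 0.05 (95% interval -0.04 to 0.13). The secreted BMP antagonists Nog and Grem1 were at -0.03 (-0.15 to 0.09) and -0.01 (-0.13 to 0.11).

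SMAD genes of the TGF-beta branch divided by sign, though only Smad2 passed the test. Smad2 was at -0.18, -0.39, -0.03, -0.61, -0.51 and -0.62 in mice 1 to 6. All values were negative, with mouse 3 at the level of the pool. The mean was -0.39 ± 0.24, 1.31-fold apart (adjusted p = 0.0182), and the call was lost when mouse 2, 4, 5 or 6 was left out (adjusted p between 0.0504 and 0.0599), while without mouse 3 the mean was -0.46 (adjusted p = 0.00655). Smad3, which shares its receptors with Smad2, was at 0.39, 0.08, 0.07, 0.28, 0.12 and 0.06. It was positive in every mouse, but its mean of 0.17 ± 0.14 did not pass (adjusted p = 0.064). Smad3 passed with scaled arrays (0.16, adjusted p = 0.0479) or array weights (0.16, adjusted p = 0.047). Within each array Smad3 exceeded Smad2 by 0.11 to 0.89, with a mean difference of 0.56 ± 0.26 that is a description only. The shared partner Smad4 was at -0.09, -0.05, -0.05, 0.04, -0.31 and -0.73 (mean -0.20, adjusted p = 0.186). It was near the pool in mice 1 to 4 and lower in mice 5 and 6, where Bmpr2 and Bmpr1a were lowest too. Low values in these mice were not particular to this pathway. The Wnt regulators Apc, at -0.75 and -1.18, and Ryk, at -0.76 and -0.86, were also lowest in mice 5 and 6, while others of their list were not. Of the BMP branch, Smad1 was at 0.09 in 5 mice and Smad5 at -0.12 in 4 mice, and the inhibitory Smad6 was at -0.001 (95% interval -0.11 to 0.11). The adaptor Tgfb1i1 was at 0.11 (-0.06 to 0.28).

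Other genes that regulate or respond to TGF-beta and BMP came from lists drawn up with earlier results of these data known. Of 39 measured regulators 4 passed, or 10.3% where 24.4% of all probes did, with a median of -0.02. The negative ones were Tgif2, a corepressor that binds SMADs, at -0.45 (n = 5), the integrin subunit Itgav, which takes part in the release of latent TGF-beta, at -0.44, and Bmper, a secreted BMP modulator, at -0.43. Inha, the inhibin alpha subunit, was positive at 0.35. The call of Tgif2 was lost without mouse 4 or 6 and that of Bmper without mouse 1, 2, 4 or 6 (adjusted p between 0.0524 and 0.0832). The list had 2 calls without mouse 4 or mouse 6 and 11 without mouse 3. Over all probes 1325, 1708 and 3036 were called without mouse 4, 6 and 3, against 2832 with all mice. Of 26 target genes 11 passed, or 42.3%, with 7 negative and 4 positive and a median of -0.10, against the 24.4% called over all probes and their median of -0.003. The largest were the fibrillar collagens Col3a1 at -1.67 and Col1a1 at -1.45, the hepcidin gene Hamp, a target of BMP signalling in liver, at 0.97, and the collagen cross-linking enzyme Lox at -0.86 (n = 5). Elastin (Eln), at -0.54, Sparc, at -0.46, Tgfbi, a matrix protein induced by TGF-beta, at -0.71 (n = 5) and Msx2, at -0.24, were also negative. Besides Hamp, the positive calls were Tsc22d1 at 0.56, Cdkn1c at 0.26 and Snai1 at 0.18 (n = 4). Tsc22d1 lost its call without mouse 2, 4 or 6. Snai1 lost it when any mouse but mouse 3 was left out, and with arrays scaled or quantile-normalized. Leaving out mouse 2 or mouse 6 left 7 targets with a call, where 1376 and 1708 of all probes were called. The calls of Tgfbi and Sparc were lost without mouse 2, 4 or 6, that of Sparc also without mouse 5 (adjusted p between 0.0734 and 0.102). Col1a1 lay between -1.97 and -0.91, negative in every mouse including mouse 3, whereas Col3a1 was at -0.08 in mouse 3 and between -2.65 and -1.22 in the others. The early BMP targets Id1 and Id3 had no call, at 0.20 (adjusted p = 0.264) and 0.17 (adjusted p = 0.222), and neither had Ccn2, at 0.25 in 5 mice (adjusted p = 0.346). The actin gene Acta2 was at -0.37 (adjusted p = 0.0577). The collagens are also in the fibroblast list, where Pdgfra, a receptor of mesenchymal cells, was positive at 0.45.

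Wnt ligands had 3 calls among 12, a share near the 24.4% of all probes, with a median of 0.08. Wnt16 was at 0.64, 0.63, 0.14, 0.61, 0.31 and 0.51 in mice 1 to 6. All mice were positive, with mouse 3 lowest. The mean was 0.47 ± 0.21, 1.39-fold apart (adjusted p = 0.00743), and the call held in all 16 alternatives (adjusted p between 0.00253 and 0.0305), with a mean of 0.54 without mouse 3. Wnt5b, a ligand that mostly acts without beta-catenin, was at 0.29, 0.20, 0.12, 0.26, 0.10 and 0.23. Its mice lay close together, the SD being 0.08 around a mean of 0.20 (1.15-fold, adjusted p = 0.0133). Without mouse 4 the mean was 0.19 (adjusted p = 0.0508), and without mouse 3 it was 0.22 (adjusted p = 0.0157). Wnt2b, which specifies lung endoderm together with Wnt2 in the embryo, was at -0.45, -0.66, 0.05, -0.40, -0.33 and -0.26. Mouse 3 was the exception to its negative sign. The mean was -0.34 ± 0.23 (1.27-fold, adjusted p = 0.0255). Leaving out any mouse but mouse 3 ended this call, with adjusted p between 0.0576 and 0.0777, and without mouse 3 the mean was -0.42 (adjusted p = 0.00578). Wnt2 itself, a mesenchymal ligand of lung, was at 0.08 (95% interval -0.05 to 0.20).

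Further Wnt ligands were within 0.21 of the pool in their means. Wnt3a, a ligand of the beta-catenin branch, was at 0.21 ± 0.26 (adjusted p = 0.136), from -0.14 in mouse 6 to 0.56 in mouse 1. Wnt10a was at 0.16 and Wnt11, which acts in cell movement, at 0.15 (adjusted p = 0.0667 and 0.0909). Each was negative in mouse 3 alone, and without mouse 3 they were at 0.21 (adjusted p = 0.0157) and 0.19 (adjusted p = 0.0328). Wnt3 was at -0.14 (adjusted p = 0.13). Wnt4, Wnt6, Wnt7a and Wnt8b had means from -0.004 to 0.08, none past the threshold.

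**Figure D4:**
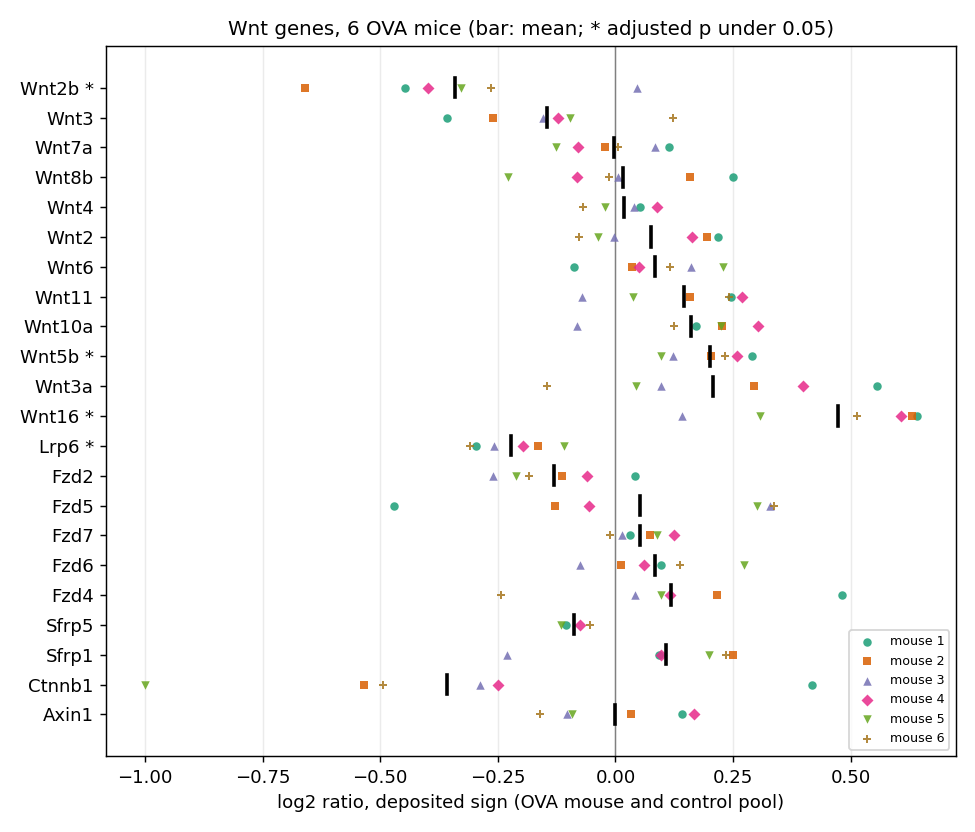
The horizontal axis gives the log2 ratio with its deposited sign for 22 Wnt genes, with 1 symbol for each OVA mouse and a black bar for the mean; an asterisk marks an adjusted p under 0.05. Wnt16 lies above 0.14 in every mouse, Lrp6 below -0.10 in every mouse, and Ctnnb1 spreads from -1.0 in mouse 5 to 0.42 in mouse 1.

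Of the Wnt receptors, Lrp6 passed. It was at -0.30, -0.16, -0.26, -0.20, -0.11 and -0.31 in mice 1 to 6. The mice differed little from each other, mouse 3 included. The mean was -0.22 ± 0.08, 1.17-fold apart (adjusted p = 0.0105), and the call held in all 16 alternatives (adjusted p up to 0.0369), with the mean still at -0.22 without mouse 3. The Frizzled receptors had no call among 5, where 24.4% of all probes were called, and this count is too small to be a result about them. Fzd2 was at -0.13 (adjusted p = 0.0848) and passed without mouse 1 (-0.17, adjusted p = 0.0445). Fzd5, a receptor of epithelial and endothelial cells, differed between mice, at -0.47, -0.13, 0.33, -0.06, 0.30 and 0.34, with mouse 1 at the opposite end from mice 3, 5 and 6. Fzd4, a receptor for norrin in vessels, ran the other way, from 0.48 in mouse 1 to -0.24 in mouse 6, and its mean was 0.12 (adjusted p = 0.336). Fzd6 and Fzd7 were at 0.08 and 0.05.

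The secreted Wnt inhibitor Sfrp1 was at 0.09, 0.25, -0.23, 0.10, 0.20 and 0.24 in mice 1 to 6, positive in all but mouse 3. Its mean was 0.11 (adjusted p = 0.278), or 0.17 without mouse 3 (adjusted p = 0.0323). A second Sfrp1 probe, with values on 3 arrays, had the opposite sign, at -0.20, -0.25 and -0.23 in mice 1, 2 and 6, so the direction of Sfrp1 depends on the probe. Sfrp5 was at -0.09 in 4 mice. Beta-catenin (Ctnnb1) was at 0.42, -0.54, -0.29, -0.25, -1.0 and -0.50, with mouse 1 on the other side from the rest. The mean was -0.36 ± 0.47 (adjusted p = 0.138), or -0.51 without mouse 1 (adjusted p = 0.0249). Axin1, the scaffold on which beta-catenin is marked for degradation, was at -0.002 (95% interval -0.13 to 0.13).

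Among other Wnt genes, 7 of 56 measured regulators passed, or 12.5% where 24.4% of all probes did, with a median of 0.02. The largest were Ppp2r5d, a phosphatase subunit, at 0.34, the casein kinase subunit Csnk2a1 at -0.30, the nuclear cofactor Bcl9 at 0.28 and the casein kinase Csnk1d at -0.27. Dvl1, which relays the signal from Frizzled, was at 0.26. Without mouse 2, 4 or 6 the calls of Bcl9 and Dvl1 were lost, that of Dvl1 also without mouse 5 (adjusted p between 0.0608 and 0.0731). The list had 4, 3 and 4 calls without mouse 2, 4 and 6. Over all probes 1376, 1325 and 1708 were called in these settings, against 2832 with all mice. Of 23 Wnt target genes 6 passed, or 26.1%, 5 negative and 1 positive, with a median of 0.03, so the share was near the 24.4% of all probes and is no result about these targets. The proteoglycan Vcan was at -1.08, the hyaluronan receptor Cd44 at -0.76, Myc at -0.63 and the transcription factor Sp5 at -0.47. Myc and Cd44 are also induced by other signals. Lgr5, a receptor for R-spondins that stands in both lists, was at 0.16. Vcan lost its call without mouse 2 or 4 (adjusted p = 0.0758 and 0.0766), Sp5 without mouse 2, 4, 5 or 6 and Lgr5 without any mouse but mouse 3, and 2 targets had a call without mouse 2 or mouse 4. Nkd1, a feedback inhibitor in both lists, was at 0.39 and just missed the threshold (adjusted p = 0.0503). Axin2, the target most often read as a sign of beta-catenin activity, had values in 2 mice only, mouse 3 at 0.01 and mouse 4 at -0.07. Cell cycle genes lay on the same side as Myc and Vcan, with 9 of 13 called, all negative, and macrophage genes had 3 of 7, all negative; their part in these ratios was not tested.

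**Figure D5:**
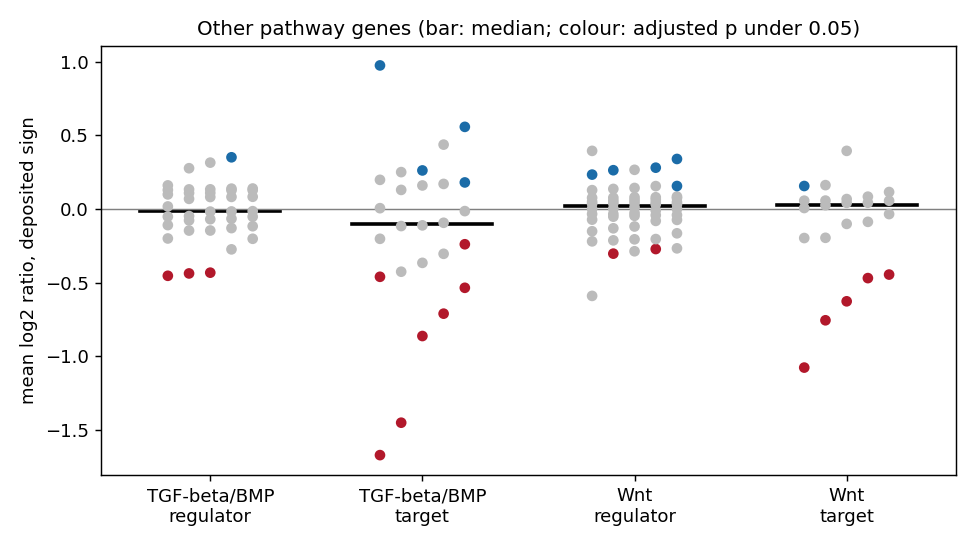
Each point is the mean log2 ratio (deposited sign, vertical axis) of 1 gene of 4 lists of other pathway genes, coloured red or blue where the adjusted p was under 0.05 with a negative or positive mean and grey otherwise, and the bar is the list median. Medians lie between -0.10 and 0.03, and the TGF-beta and BMP targets reach from -1.67 to 0.97.

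The remaining 33 probes of these families fell short of 4 arrays, among them the only probe of 31 genes. For 15 of them no array had a value, including those of the ligands Tgfb1, Inhba, Bmp2, Bmp5 and Wnt5a, the type I receptors Acvr1 and Acvr1b, Ltbp2, Fzd1, Fzd9 and Smad9. The other 18 had values on 1 to 3 arrays, 40 values in all, between -0.29 and 0.34, among them Tgfbr1, Bmp6, Bmp7, Wnt1, Wnt7b, Fst and Sfrp2. The filter that left spots empty is not stated, and these genes were not analysed further here. The families were measured somewhat less often than the array as a whole, 59.3% of probes against 68.0%.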

How the data were processed

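Lung RNA of 6 OVA mice was compared with 1 pool of control lung RNA on spotted 2-colour arrays, and the number of arrays limits the precision. The authors deposited 1 log ratio per probe and array, read here as log2 values; a natural logarithm cannot be told apart from the values and would make each fold larger. The scanner, dyes, background correction, normalization and spot filter were not given in the sources used here. Probe names came from the platform annotation, updated through a RefSeq gene table (GRCm38.p6, names only). No symbol of the 81 probes changed. Each array was centred on its median over 8663 probes measured on all arrays, and 170 repeated and 4 plant control rows were left out. Probes with at least 4 values were tested for a mean ratio other than 0 (R 4.3.3, limma 3.58.1, two-sided moderated test with eBayes, Benjamini-Hochberg adjustment), after a check on simulated data. The pool is 1 control sample, so the spread between control mice is left out, and dye effects of a gene do not cancel. Labels name each mouse separately.

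The genes and lists were chosen with earlier results of these data known. Every member may be named, with values of every mouse for those past the threshold and up to 3 more per role, and up to 4 genes per list. Outside this plan, Tgfbi, Eln, Sparc, Msx2, Tsc22d1, Cdkn1c, Snai1, Id1, Id3, Ccn2, Acta2, Pdgfra, Acvrl1, Apc, Ryk, Dvl1, Lgr5, Nkd1, Clca1, Muc5ac and Retnla were picked with their values in view. Lists used the probe with most arrays per gene. The alternatives tried were uncentred arrays, arrays scaled or quantile-normalized, at least 3 or 6 arrays, array weights, robust eBayes, genes in place of probes, control rows kept, probes 6, 18 or 24 numbers from a stronger probe left out, a threshold of 0.01, a wider name rule, and leaving out each mouse. Figures used matplotlib 3.10.9 in Python 3.11.15.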

Additional observations from a re-analysis of the deposited data

Results flagged for a closer look

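Among 75 genes checked, 2 had 1 mouse far from the others by Dixon's criterion, which chance alone meets in about 1 in 20. Sfrp1 was at -0.23 in mouse 3, while the other mice lay between 0.09 and 0.25. Ltbp3 was at 0.96 in mouse 1, while the others lay between 0.07 and 0.39.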

How the results depend on the processing

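No paired analysis was possible because the 6 mice form 1 group and share 1 pool. None of the 9 called genes changed sign in any of the 16 alternatives fitted; Ltbp1, Wnt16 and Lrp6 kept their call in all, and the others lost it only when a mouse was left out. Leaving out 1 mouse gave 1325 to 3036 probes called in all against 2832, 2 to 7 negative and 1 to 6 positive genes of the 48, 2 to 11 TGF-beta and BMP regulators, 7 to 13 of their targets, 3 to 10 Wnt regulators and 2 to 8 Wnt targets. The median of the 48 means ranged from -0.03 to 0.02. Positive calls among the 48 numbered 7 with array weights, 6 with scaled arrays and 5 with quantile normalization, and array weights called 7 TGF-beta and BMP regulators. At an adjusted p of 0.01, 746 probes passed in all, with 1 negative gene, Ltbp1, and 1 positive gene, Wnt16, of the 48, 1 TGF-beta and BMP regulator, 3 of their targets, 1 Wnt regulator and 1 Wnt target. The wider name rule added the negative Tgfbi and Bmper, for 8 negative calls.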
